A study of Homo sapiens with 15 samples.

Results

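The genes described here are 48 interferon-stimulated genes, a curated list of genes that cells switch on when interferon signalling or nucleic acid sensing is active. A gene was followed through the probe sets that the platform annotation ties to its symbol alone, and of several such probe sets the brightest over all 15 arrays was used. By this rule 47 of the 48 genes were measured, out of 19775 genes in all. STAT2 was not analysed here.

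The cells were CALDOX, a doxorubicin-resistant line, and CAL51, the triple-negative breast cancer line it was derived from by prolonged growth in 0.4 µM doxorubicin. Doxorubicin is an anthracycline that poisons topoisomerase II and breaks DNA. CALDOX was sampled after 24 h in 4 µM of the drug and without treatment. CAL51 was sampled as untreated (naïve) cells and after 24 h and 48 h in 0.4 µM. Each of these 5 groups had 3 cultures, labelled as separate biological samples, with 1 array each. CALDOX was routinely kept in the drug, at a dose that the growth protocol prints as 0.4 M, read here as 0.4 µM. It had 3 drug-free passages before its 24 h treatment. Whether the untreated CALDOX cultures were also drug-free is not stated in the sources used here, nor is whether the line is a single clone. RNA came from whole cultures, so fewer cells expressing a gene and less RNA per cell cannot be told apart.

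Interferons bind cell surface receptors that activate JAK kinases, which phosphorylate STAT transcription factors. The complex ISGF3, of which IRF9 is the DNA-binding part, binds the interferon-stimulated response element (ISRE) in target promoters, while the gamma-activated site (GAS) serves the response to interferon gamma. Cytosolic DNA and RNA, sensed through cGAS and STING or through RIG-I-like receptors, induce interferon and some of the same genes directly through IRF proteins, and part of the programme is known to stay on in tumour cells that survive DNA damage.

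Promoter sequences are shown first because the genes are defined by what drives them. RefSeq promoters (build GRCh38.p14, 250 bases before to 50 after each annotated start) were matched for 38 of the 48 genes. The ISRE core, spelled as GAAA, any 2 bases and GAAA again and searched on both strands, was present in 24 of these 38 promoters (63.2%), against 3.65% of 27305 promoters of the same length. The GAS motif, TTCNNNGAA, which reads the same on both strands, was present in 9 of 38 (23.7%), against 7.88% of all promoters. The p53 half-site was present in 2 (5.3%), ISG15 and TRIM21, against 6.54% of all promoters. The interferon motifs can overlap, as in IFITM1, and a match is a description of the letters only. The sequences below run from 150 bases before to 25 after the start, with ISRE core and GAS matches in capitals. They were chosen to show genes called higher, called lower and not called between the lines.
IFIT1 (chr10:89392473-89392647, plus strand): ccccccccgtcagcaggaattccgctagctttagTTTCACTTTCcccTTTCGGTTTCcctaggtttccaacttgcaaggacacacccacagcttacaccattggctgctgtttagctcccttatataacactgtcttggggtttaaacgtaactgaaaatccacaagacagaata
IFITM1 (chr11:313890-314064, plus strand): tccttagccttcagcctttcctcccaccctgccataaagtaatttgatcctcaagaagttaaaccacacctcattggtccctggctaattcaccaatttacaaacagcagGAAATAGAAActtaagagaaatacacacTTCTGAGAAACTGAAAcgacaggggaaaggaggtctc
PARP14 (chr3:122680689-122680863, plus strand): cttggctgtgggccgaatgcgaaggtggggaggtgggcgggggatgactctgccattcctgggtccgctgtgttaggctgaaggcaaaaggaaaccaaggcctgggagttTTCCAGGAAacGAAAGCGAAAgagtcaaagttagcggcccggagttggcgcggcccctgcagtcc
TRIM14 (chr9:98119198-98119372, minus strand): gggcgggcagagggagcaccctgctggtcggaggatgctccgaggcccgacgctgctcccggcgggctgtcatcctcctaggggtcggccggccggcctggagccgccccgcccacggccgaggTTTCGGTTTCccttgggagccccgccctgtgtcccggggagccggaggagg
LGALS3BP (chr17:78979899-78980073, minus strand): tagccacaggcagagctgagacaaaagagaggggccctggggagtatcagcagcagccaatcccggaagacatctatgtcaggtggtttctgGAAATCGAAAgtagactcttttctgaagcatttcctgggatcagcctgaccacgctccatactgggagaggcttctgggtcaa
ISG15 (chr1:1013347-1013521, plus strand): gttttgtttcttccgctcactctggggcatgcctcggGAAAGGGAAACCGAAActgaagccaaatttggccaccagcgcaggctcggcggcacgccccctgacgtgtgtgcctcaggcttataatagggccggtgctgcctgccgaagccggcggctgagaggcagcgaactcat
GBP1 (chr1:89065184-89065358, minus strand): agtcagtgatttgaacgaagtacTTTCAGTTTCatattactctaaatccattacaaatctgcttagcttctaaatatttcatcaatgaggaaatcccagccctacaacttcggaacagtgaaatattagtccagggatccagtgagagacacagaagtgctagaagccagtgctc
MX1 (chr21:41420408-41420582, plus strand): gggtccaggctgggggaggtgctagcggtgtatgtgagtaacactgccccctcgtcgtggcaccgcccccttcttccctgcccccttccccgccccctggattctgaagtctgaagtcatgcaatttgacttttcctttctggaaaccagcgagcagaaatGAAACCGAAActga
IFIT1 carried a pair of ISRE cores that both read on the opposite strand, ISG15 a pair that overlap, IFITM1 a pair of which one overlaps a GAS, and PARP14 a GAS next to an ISRE core just before its start. A single ISRE core stood in the promoters of TRIM14 and LGALS3BP, which were higher in CALDOX, of GBP1, which was lower, and of MX1, which was not called. Among genes with a promoter and a measurement, the ISRE core was found in 13 of 19 that were higher in CALDOX, 2 of 3 that were lower and 9 of 15 that were not called.

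Of the 47 measured genes 26 were called in at least 1 of the 6 comparisons, where 38.6% of all genes were, and 21 in none, among them the antiviral genes MX1, OAS1 and RSAD2. Between untreated CALDOX and untreated CAL51, 24 of 47 genes passed the test (limma, Benjamini-Hochberg adjusted p under 0.05 over all 19775 genes), 20 higher and 4 lower, or 51.1% against 25.9% of all genes (14.2% higher, 11.7% lower). Levels here are log2 values, and differences are log2 fold changes ± SE from 3 arrays per group. Of those 24, 8 were at least 2-fold higher and 1 at least 2-fold lower. Of the 8, TRIM14, PARP14 and PARP9 stood at 0.30, 0.60 and 0.46 with the median over probe sets of a gene. These are below 2-fold, though still called. The median difference over the 47 genes was 0.11, against 0.00 over all genes.
The short treatments moved fewer genes. In CALDOX, 24 h of 4 µM doxorubicin raised 7 genes and lowered none (14.9%, against 10.3% of all genes, of which 4.82% higher and 5.5% lower; median 0.02 against -0.01). In CAL51, 24 h of 0.4 µM doxorubicin raised 8 and lowered 1 (19.1%, against 10.1% of all genes, of which 5.77% higher and 4.34% lower; median 0.01 against -0.03). At 48 h, 12 were higher and 1 lower than in untreated CAL51 (27.7%, against 21.6%; 10.5% of all genes were higher and 11.2% lower). From 24 h to 48 h in CAL51, 5 rose and 2 fell (14.9%, against 9.71% of all genes, of which 4.37% higher and 5.34% lower). By the brightest probe sets, no gene reached a 2-fold change in any of these treatment comparisons. With the median over probe sets, GBP1 at 24 h in CAL51 stood at 0.999, just under 2-fold, against 0.83. For each of the called differences the arrays of the groups compared did not overlap. The calls were made from these same arrays, so this adds no support to them. Some genes that were not called did not overlap either, such as IFI6, IFIT3 and TRIM25 at 24 h in CAL51.

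**Figure D1:**
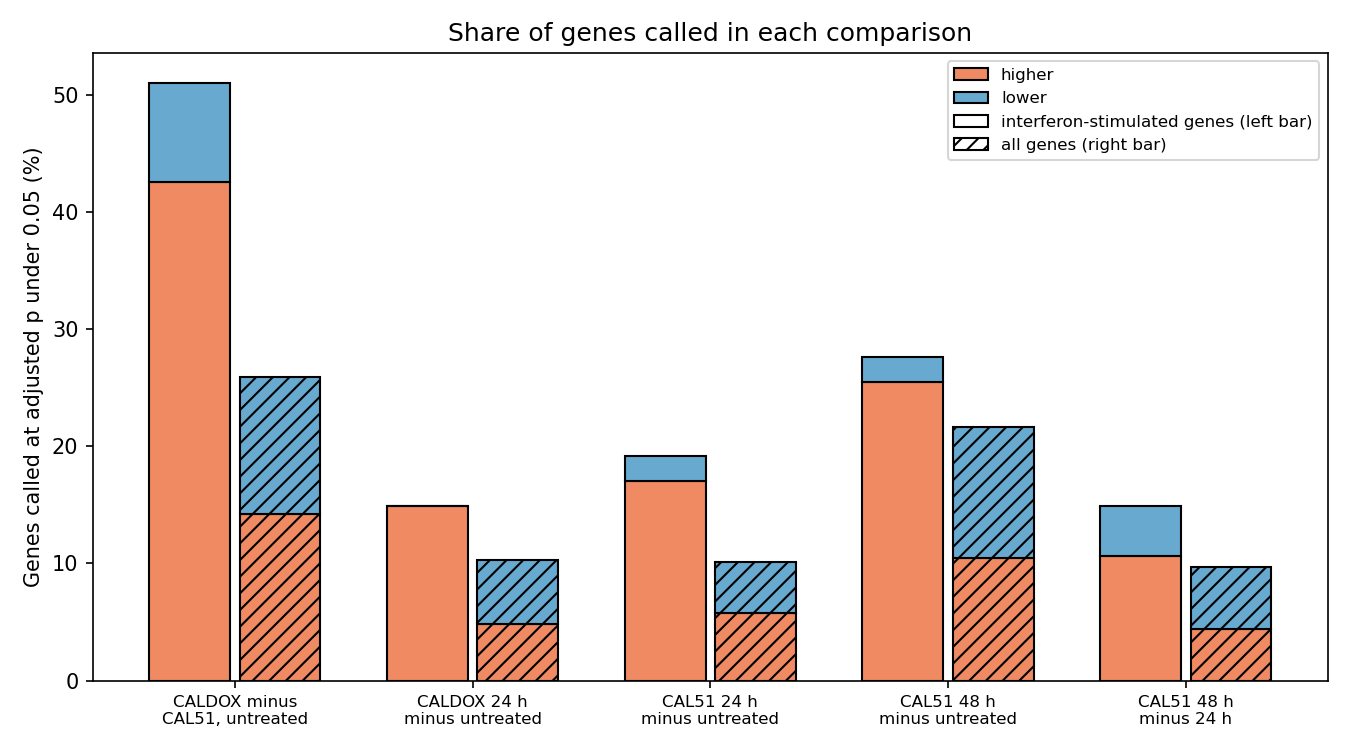
Percentage of genes called higher (orange) and lower (blue) at adjusted p under 0.05 in each comparison, for the 47 interferon-stimulated genes (left bars) and all 19775 genes (right, hatched bars). The interferon-stimulated genes reached 51.1% in untreated CALDOX against untreated CAL51, where 25.9% of all genes were called, and stood at or below 27.7% in the treatment comparisons.

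The comparisons of untreated CALDOX and of treated CAL51 share the untreated CAL51 arrays, so each gene's values in them are given side by side below and their overlap is not read as a result.

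**Figure D2:**
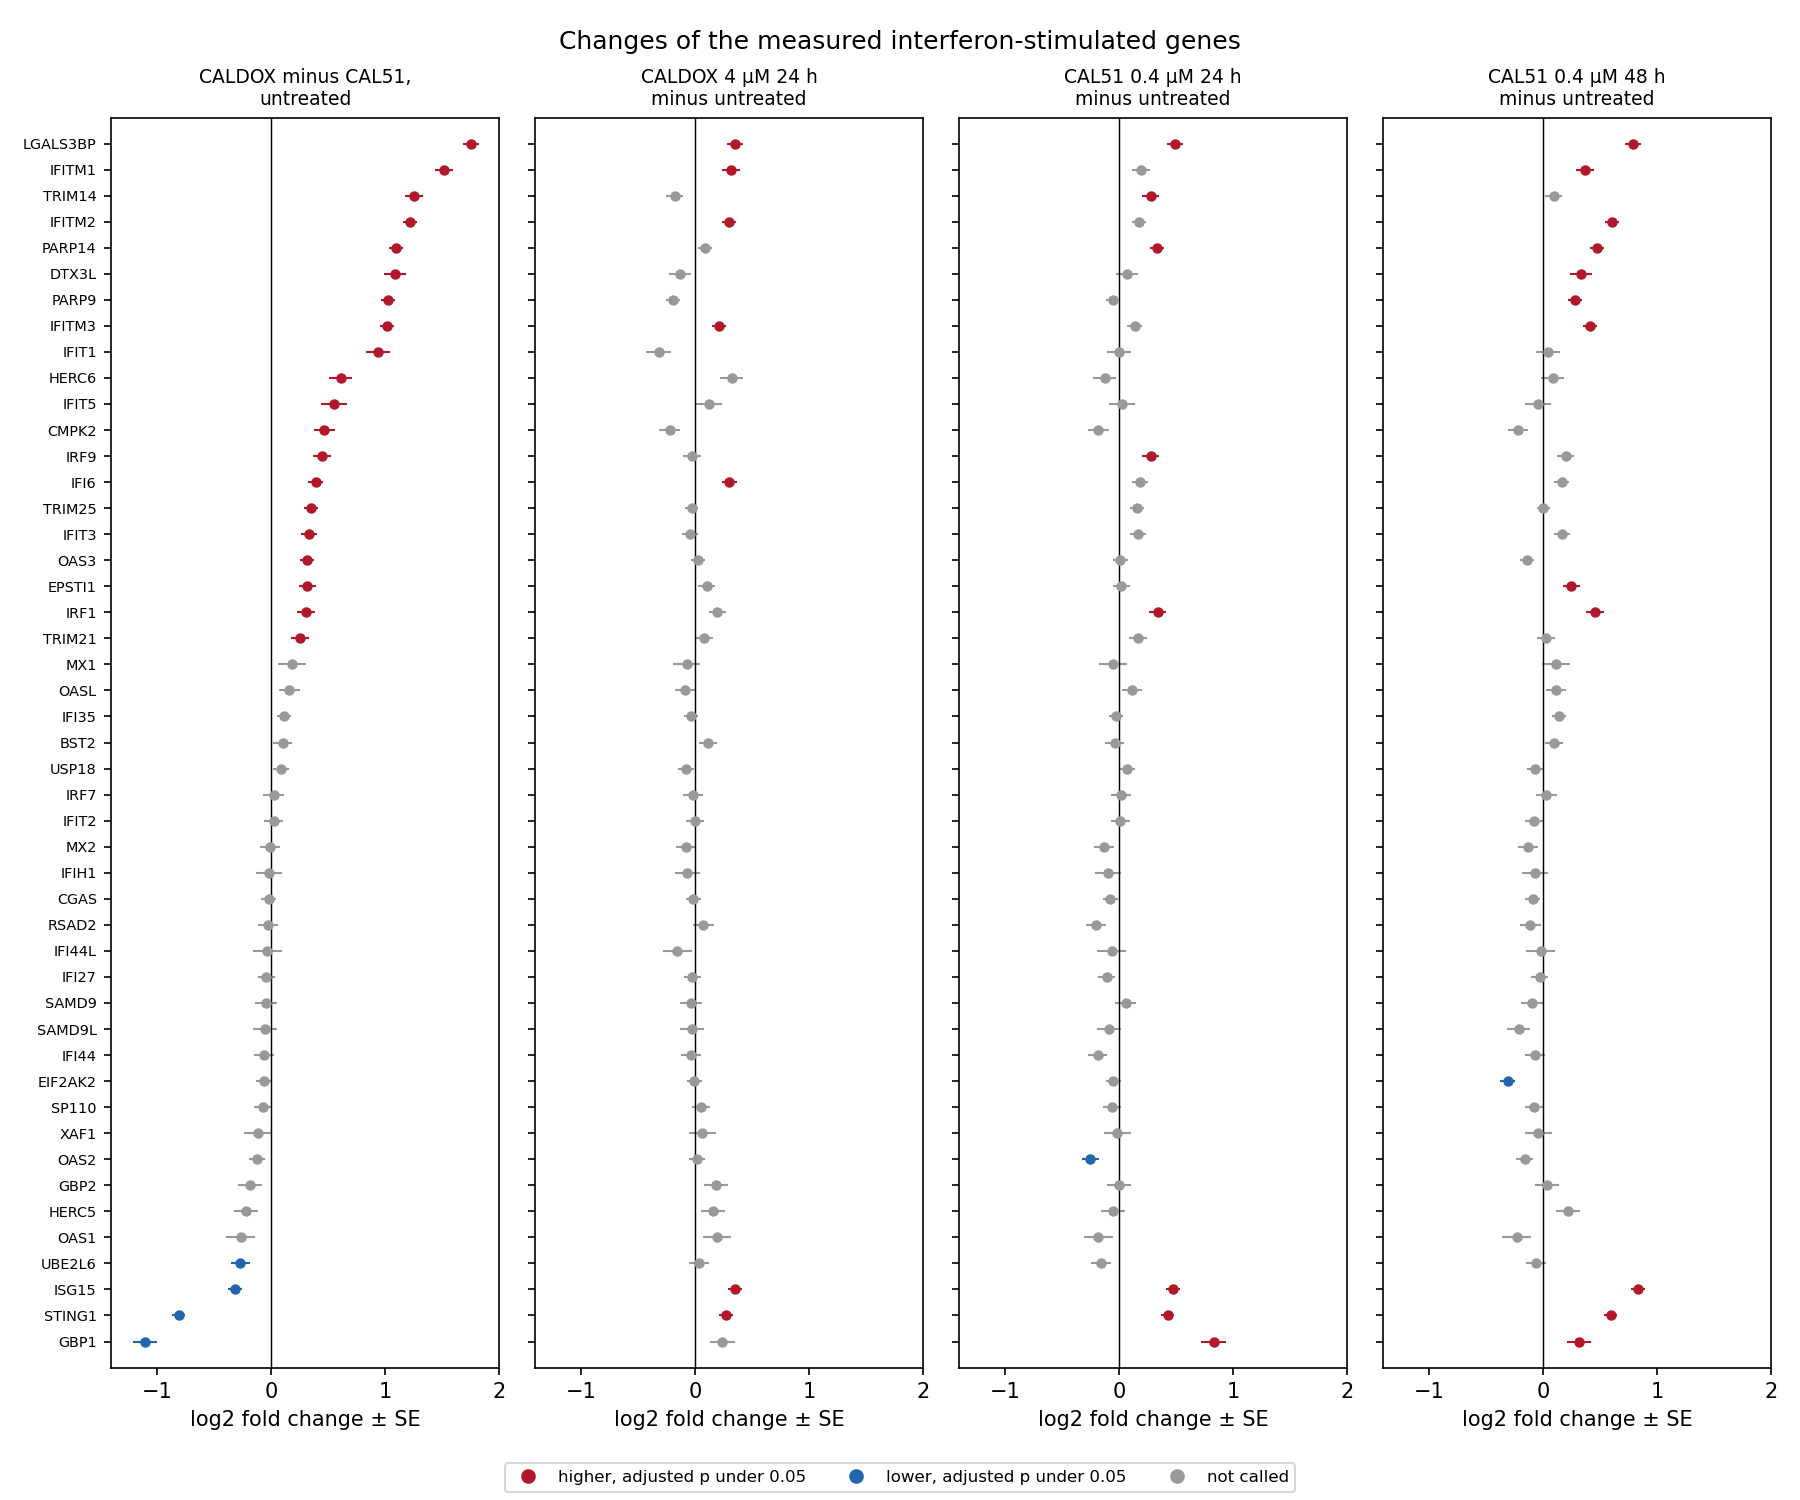
Log2 fold change ± SE of each interferon-stimulated gene in 4 comparisons, with genes in the order of the difference between untreated CALDOX and untreated CAL51. Red is called higher, blue lower and grey not called. Differences ran from -1.11 for GBP1 to 1.76 for LGALS3BP between the lines, and treatment changes lay within -0.32 and 0.83.

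The IFITM family, transmembrane proteins that block the entry of enveloped viruses, was high throughout and highest in CALDOX. IFITM1 read 10.36, 10.33 and 10.28 on the 3 treated CALDOX arrays and 9.95, 10.03 and 10.04 on the 3 untreated CALDOX arrays. In CAL51 it read 8.34, 8.62 and 8.51 untreated, 8.57, 8.74 and 8.74 at 24 h and 8.74, 8.92 and 8.92 at 48 h. Every CALDOX array stood above every CAL51 array, and treated CALDOX above untreated CALDOX. The difference between the untreated lines was 1.52 ± 0.08 (adjusted p = 2.6e-10), which is 2.87-fold.
IFITM2 read 12.29, 12.31 and 12.33 in treated CALDOX and 11.96, 12.04 and 12.03 in untreated CALDOX. CAL51 arrays gave 10.71, 10.85 and 10.80 untreated, 10.98, 10.87 and 11.05 at 24 h and 11.45, 11.31 and 11.42 at 48 h. The 5 groups did not overlap, although the lowest 24 h array of CAL51 lay just above its highest untreated one. IFITM2 was higher in CALDOX by 1.22 ± 0.06 (adjusted p = 3.5e-10) and rose in CAL51 by 0.60 ± 0.06 (adjusted p = 3.6e-06) over 48 h, of which 0.42 ± 0.06 (adjusted p = 0.00058) came after 24 h. IFITM3 was higher in CALDOX by 1.02 ± 0.06 (adjusted p = 3.6e-09) and rose by 0.41 ± 0.06 (adjusted p = 0.00016) at 48 h in CAL51. From 24 h to 48 h it rose by 0.28 ± 0.06 (adjusted p = 0.011), which was not called when those groups were fitted alone.
Treatment of CALDOX raised IFITM1 by 0.32 ± 0.08 (adjusted p = 0.013), IFITM2 by 0.30 ± 0.06 (adjusted p = 0.0049) and IFITM3 by 0.21 ± 0.06 (adjusted p = 0.042). The IFITM1 call was lost without replicate 1 of treated CALDOX (adjusted p = 0.057, 0.30) or replicate 1 of untreated CALDOX, and the IFITM3 call without any of 11 arrays, all but the untreated CAL51 arrays and CAL51 24 h replicate 2 (adjusted p up to 0.16, 0.19 without replicate 1 of treated CALDOX). At 24 h in CAL51 the 3 genes were not called (IFITM1 0.19 ± 0.08, IFITM2 0.18 ± 0.06, IFITM3 0.14 ± 0.06). BST2, a tether of budding virions, was not called in any comparison. The IFITM2 and IFITM3 probe sets are of a type whose probes may also match related transcripts, so their values may include one another's RNA.

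PARP9, DTX3L and PARP14 are neighbouring genes for ADP-ribosylation and ubiquitin ligation; PARP9 and DTX3L proteins form a complex that acts in DNA damage and interferon responses, and PARP14 is a mono-ADP-ribosyltransferase. All 3 were higher in CALDOX. PARP14 read 9.51, 9.65 and 9.61 in treated CALDOX and 9.45, 9.54 and 9.53 in untreated CALDOX. Its CAL51 arrays gave 8.38, 8.51 and 8.35 untreated, 8.69, 8.80 and 8.74 at 24 h and 8.83, 8.91 and 8.92 at 48 h. The 3 CAL51 groups stood apart from each other and below all CALDOX arrays, while the CALDOX groups overlapped. Its differences were 1.10 ± 0.06 (adjusted p = 1.1e-09) between lines, 0.33 ± 0.06 (adjusted p = 0.0022) at 24 h and 0.47 ± 0.06 (adjusted p = 3.4e-05) at 48 h. The treated minus untreated value in CALDOX was 0.08 ± 0.06, not called.
PARP9 read 9.24, 9.33 and 9.18 in treated CALDOX. It read 9.35, 9.56 and 9.41 in untreated CALDOX against 8.45, 8.43 and 8.37 in untreated CAL51, then 8.34, 8.33 and 8.42 at 24 h and 8.71, 8.67 and 8.71 at 48 h. It differed by 1.03 ± 0.06 (adjusted p = 3.3e-09) between the lines and rose by 0.28 ± 0.06 (adjusted p = 0.0036) at 48 h over untreated CAL51 and by 0.33 ± 0.06 (adjusted p = 0.0031) at 48 h over the 24 h group. All CALDOX arrays stood above all CAL51 arrays, and the 48 h arrays above the 24 h ones. DTX3L was higher in CALDOX by 1.09 ± 0.10 (adjusted p = 2.5e-07) and rose in CAL51 by 0.33 ± 0.10 (adjusted p = 0.021) at 48 h. The DTX3L call at 48 h was lost without untreated CAL51 replicate 2 (adjusted p = 0.11, 0.24) or 48 h replicate 3.
The probe sets of PARP14 and PARP9 differed. The second probe set of PARP14 differed by 0.10 between the lines and that of PARP9 by -0.10, neither called. With the median over probe sets of a gene, PARP14 was 0.60 and PARP9 0.46 higher in CALDOX and both remained called there, but the PARP14 calls at 24 h (adjusted p = 0.32) and 48 h (0.058) and the PARP9 call at 48 h (0.52) were lost.

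TRIM proteins are ubiquitin ligases or scaffolds of antiviral signalling, and TRIM14 is an adaptor that lies at mitochondria and binds cGAS. TRIM14 read 8.65, 8.73 and 8.81 in treated CALDOX and 8.77, 9.06 and 8.90 in untreated CALDOX. CAL51 arrays of TRIM14 gave 7.69, 7.73 and 7.55 untreated, 7.93, 7.90 and 7.97 at 24 h and 7.72, 7.71 and 7.82 at 48 h. All CALDOX arrays were above all CAL51 arrays, and the 24 h CAL51 arrays were above the untreated ones, which the 48 h arrays overlapped. The differences were 1.25 ± 0.08 (adjusted p = 2.9e-09) between the lines and 0.28 ± 0.08 (adjusted p = 0.029) at 24 h in CAL51. The 24 h call was lost without replicate 1 or 3 of untreated CAL51 or of the 24 h group (adjusted p up to 0.13, 0.23 without untreated replicate 3), with the compared groups fitted alone (0.077) and with the median over its probe sets, where the difference was 0.00 (adjusted p = 1).
TRIM14 was the only one of the 47 called for the difference of the 24 h responses, at -0.46 ± 0.11 (adjusted p = 0.048) for CALDOX minus CAL51 (1 of 47, 2.13%, against 1.43% of all genes, of which 0.576% higher and 0.855% lower). Its value was -0.18 ± 0.08 in CALDOX, not called, against 0.28 ± 0.08 in CAL51. The doses differed (4 µM in CALDOX, 0.4 µM in CAL51), so line and dose cannot be told apart in this comparison. The call was lost without any of 14 arrays, all but untreated CALDOX replicate 1 (adjusted p up to 0.15, -0.41 without treated CALDOX replicate 1), and with the compared groups fitted alone (0.073), and the sign turned to 0.08 with the median over its 5 probe sets. Of those 5, 4 were called higher in CALDOX, from 0.06 for the uncalled one to 1.25. The median over them gave 0.30 between the untreated lines (adjusted p = 0.017, limma).
TRIM25, an activator of RIG-I, was higher in CALDOX by 0.35 ± 0.06 (adjusted p = 0.00027) and TRIM21, an intracellular antibody receptor, by 0.26 ± 0.08 (adjusted p = 0.025). The second probe set of TRIM25 differed by 0.09, not called. The TRIM21 call was lost without replicate 1 or 3 of either untreated line (adjusted p up to 0.12, 0.21 without CALDOX replicate 3).

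LGALS3BP, a secreted galectin-binding glycoprotein, showed the largest difference between the lines among the 47. It read 10.74, 10.73 and 10.84 in treated CALDOX and 10.34, 10.53 and 10.39 in untreated CALDOX. In CAL51 it read 8.70, 8.72 and 8.57 untreated, 9.18, 9.04 and 9.24 at 24 h and 9.45, 9.48 and 9.42 at 48 h. The 5 groups did not overlap, and LGALS3BP was called in all 5 pairwise comparisons tested. CALDOX exceeded CAL51 by 1.76 ± 0.07 (adjusted p = 1.3e-11), or 3.38-fold. The treatment rises were 0.35 ± 0.07 (adjusted p = 0.0031) in CALDOX, 0.49 ± 0.07 (adjusted p = 0.00022) at 24 h in CAL51, 0.79 ± 0.07 (adjusted p = 5.8e-07) at 48 h and 0.30 ± 0.07 (adjusted p = 0.011) between the times, the last not called when the 2 groups were fitted alone. Its responses in the 2 lines differed by -0.14 ± 0.10 for CALDOX minus CAL51, with a 95% interval of -0.35 to 0.07. EPSTI1, a stromal interaction protein, was higher in CALDOX by 0.32 ± 0.07 (adjusted p = 0.004) and at 48 h by 0.25 ± 0.07 (adjusted p = 0.024). Both calls were lost with the median over its probe sets (adjusted p = 0.32 and 0.52), and the 48 h one also without untreated replicate 1 (adjusted p = 0.095, 0.21) or 48 h replicate 2 or 3 of CAL51.

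**Figure D3:**
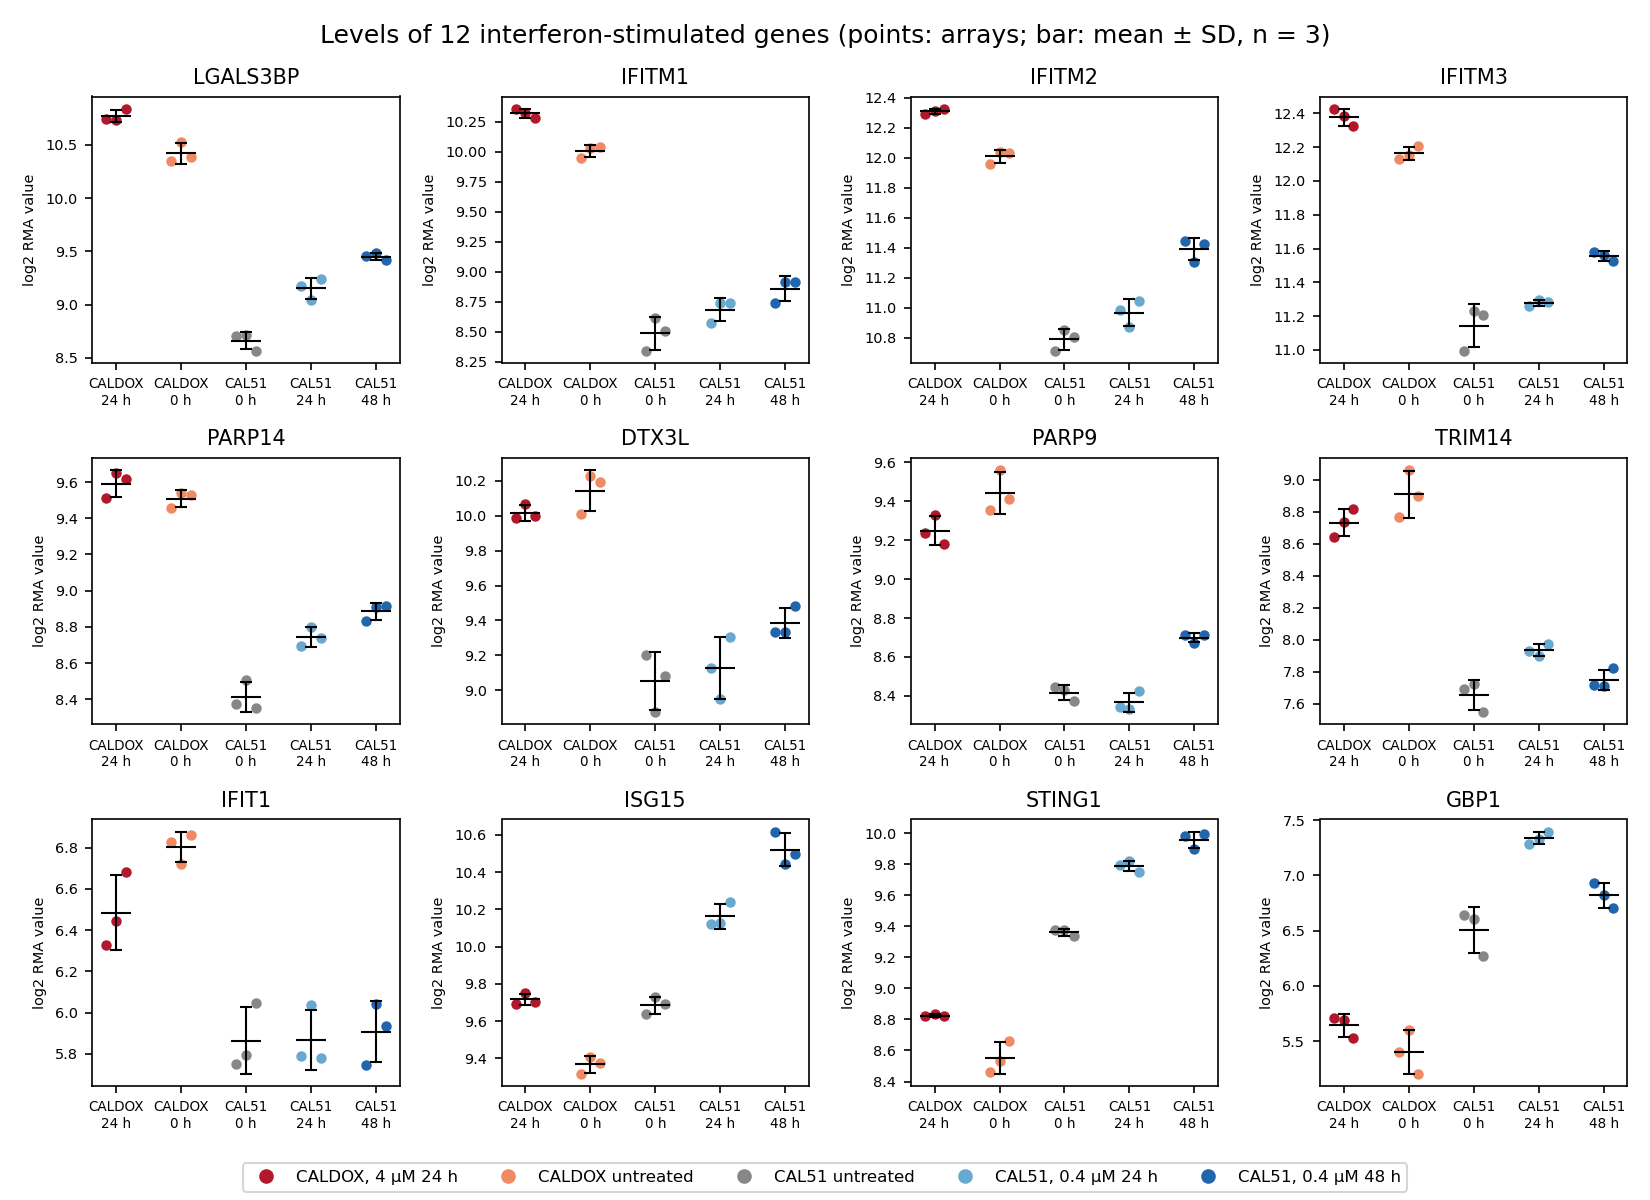
Log2 RMA level of 12 interferon-stimulated genes on each array (points, 3 per group) with the group mean ± SD. LGALS3BP, the IFITM genes, PARP14, DTX3L, PARP9, TRIM14 and IFIT1 stood higher in both CALDOX groups than in every CAL51 group, STING1 and GBP1 stood lower, and ISG15 stood highest in CAL51 at 48 h.

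The IFIT genes encode cytosolic proteins that bind viral RNA, and the IFI genes a mixed set of interferon-induced proteins. Of these 9 genes, 4 were higher in CALDOX, where 14.2% of all genes were, and none was called at 24 h or 48 h in CAL51. At each of these times 3 of 9 had an unadjusted p under 0.05 (limma). Of all 19775 genes, 4378 had one at 24 h and 6279 at 48 h. IFIT1, which binds RNA lacking host cap methylation, read 6.83, 6.72 and 6.86 in untreated CALDOX against 5.75, 5.80 and 6.05 in untreated CAL51, a difference of 0.94 ± 0.11 (adjusted p = 4.3e-06). The untreated groups did not overlap. After treatment CALDOX read 6.33, 6.44 and 6.68, a difference of -0.32 ± 0.11 that was not called (adjusted p = 0.075).
IFIT5 was higher in CALDOX by 0.56 ± 0.11 (adjusted p = 0.0014) and IFIT3 by 0.34 ± 0.07 (adjusted p = 0.0014), with 1.10 in the second probe set of IFIT3. IFIT2, the neighbouring family member, differed by 0.02 ± 0.08, not called. IFI6, a mitochondrial and endoplasmic reticulum protein that limits apoptosis and viral replication, read 7.26, 7.38 and 7.30 in treated CALDOX, 7.08, 7.00 and 6.97 in untreated CALDOX and 6.58, 6.67 and 6.62 in untreated CAL51. The treated CAL51 arrays gave 6.71, 6.91 and 6.79 at 24 h and 6.89, 6.76 and 6.71 at 48 h. Treated CALDOX stood above untreated CALDOX and that above all CAL51 arrays. In CAL51 the 24 h and 48 h arrays overlapped and stood above the untreated ones, though neither rise was called. It was higher by 0.39 ± 0.07 (adjusted p = 0.00028) between lines and rose in CALDOX by 0.30 ± 0.07 (adjusted p = 0.0076).
CMPK2, a mitochondrial nucleotide kinase, was higher in CALDOX by 0.47 ± 0.09 (adjusted p = 0.00069), whereas its neighbour RSAD2 (viperin) was not called (-0.03 ± 0.09).

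ISG15 is a ubiquitin-like modifier, conjugated to proteins by UBE2L6 and HERC ligases and removed by USP18. It rose in both lines on treatment, yet was lower in untreated CALDOX than in untreated CAL51. ISG15 read 9.69, 9.75 and 9.71 in treated CALDOX and 9.32, 9.41 and 9.38 in untreated CALDOX. The CAL51 arrays gave 9.64, 9.73 and 9.69 untreated, 10.12, 10.13 and 10.24 at 24 h and 10.62, 10.45 and 10.50 at 48 h. Treated CALDOX overlapped untreated CAL51, and the CAL51 times were stepped without overlap.
The treatment effects were 0.35 ± 0.06 (adjusted p = 0.0012) in CALDOX, 0.48 ± 0.06 (adjusted p = 8.2e-05) at 24 h in CAL51, 0.83 ± 0.06 (adjusted p = 8e-08) at 48 h and 0.36 ± 0.06 (adjusted p = 0.0015) between 24 h and 48 h. Between untreated lines the difference was -0.32 ± 0.06 (adjusted p = 0.00072), 1.25-fold lower in CALDOX. The difference of responses was -0.13 ± 0.09 (95% interval -0.31 to 0.05, not called). HERC6 was higher in CALDOX by 0.61 ± 0.10 (adjusted p = 0.00019) in its brighter probe set, with no difference in the other. UBE2L6, the conjugating enzyme, was lower in CALDOX at -0.27 ± 0.09 (adjusted p = 0.031), a call lost without replicate 2 or 3 of either untreated line (adjusted p up to 0.14, -0.21 without CAL51 replicate 2). HERC5 and USP18 were not called in any comparison.

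STING1, the adaptor that passes the cGAS signal to TBK1 and IRF3, rose in both lines on treatment and stood lower in CALDOX. It read 8.82, 8.83 and 8.82 in treated CALDOX and 8.46, 8.53 and 8.66 in untreated CALDOX. In CAL51 it read 9.37, 9.37 and 9.34 untreated, 9.80, 9.82 and 9.75 at 24 h and 9.98, 9.90 and 9.99 at 48 h. No CALDOX array reached the lowest CAL51 array, and each treated group stood above its untreated one. STING1 differed by -0.81 ± 0.06 (adjusted p = 2.2e-08) between lines, 1.75-fold lower in CALDOX, and its second probe set by -0.88. It rose by 0.27 ± 0.06 (adjusted p = 0.0059) in treated CALDOX, by 0.43 ± 0.06 (adjusted p = 0.00016) at 24 h in CAL51 and by 0.60 ± 0.06 (adjusted p = 2e-06) at 48 h. cGAS (CGAS), which acts upstream of STING, and MDA5 (IFIH1), a sensor of the RIG-I-like receptor route, were not called in any comparison.

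GBP1, an interferon-inducible GTPase of host defence, had the lowest difference between CALDOX and CAL51 among the 47 genes. It read 5.71, 5.70 and 5.52 in treated CALDOX and 5.40, 5.60 and 5.20 in untreated CALDOX. The CAL51 values were 6.64, 6.61 and 6.27 untreated, 7.29, 7.33 and 7.40 at 24 h and 6.93, 6.83 and 6.71 at 48 h. Its CAL51 level peaked at 24 h above both other CAL51 groups, and all CALDOX arrays lay below all CAL51 arrays. The differences were -1.11 ± 0.11 (adjusted p = 7.2e-07) between lines (2.15-fold lower in CALDOX), 0.83 ± 0.11 (adjusted p = 9.7e-05) at 24 h, 0.31 ± 0.11 (adjusted p = 0.047) at 48 h and -0.52 ± 0.11 (adjusted p = 0.0057) from 24 h to 48 h. The 48 h call was lost without any of 9 arrays: all treated CALDOX arrays, untreated CALDOX replicate 1, untreated CAL51 replicate 3, and replicates 1 and 3 at 24 h and 1 and 2 at 48 h (adjusted p up to 0.23, 0.20 without untreated CAL51 replicate 3), and with repeated quantile normalization (0.051), array weights (0.052) and the compared groups alone (0.076).
In CALDOX the treated minus untreated value of GBP1 was 0.24 ± 0.11, not called, and the response difference of -0.59 ± 0.15 was not called (adjusted p = 0.072; 95% interval -0.91 to -0.27). Of its 4 probe sets 3 were called lower in CALDOX, from -2.10 to -1.11, and the fourth, the dimmest, stood at 0.13. The brightest, used here, is of the type whose probes may also match related transcripts. In a fit over all probe sets, 2 dimmer GBP1 probe sets were called for the response difference, at -1.15 (adjusted p = 0.001) and -0.92 (adjusted p = 0.016). GBP2, MX1 and MX2, other large GTPases, were not called in any comparison, and MX1 differed by 0.19 ± 0.12 between the lines.

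IRF1, a transcription factor that interferon and DNA damage both induce, read 7.91, 8.02 and 8.02 in treated CALDOX and 7.69, 7.78 and 7.89 in untreated CALDOX. In CAL51 it read 7.49, 7.50 and 7.44 untreated, 7.73, 7.79 and 7.93 at 24 h and 7.91, 7.80 and 8.09 at 48 h. The untreated CAL51 arrays were lowest of all. IRF1 was higher by 0.31 ± 0.08 (adjusted p = 0.0066) in CALDOX, 0.34 ± 0.08 (adjusted p = 0.01) at 24 h and 0.46 ± 0.08 (adjusted p = 0.00044) at 48 h. Its second probe set differed by 0.15 between the untreated lines, not called. The 24 h call was lost without 24 h replicate 3 (adjusted p = 0.051, 0.28) and with the median over probe sets (0.068). IRF9, the DNA-binding part of ISGF3, was higher in CALDOX by 0.45 ± 0.08 (adjusted p = 0.00032) and rose at 24 h by 0.28 ± 0.08 (adjusted p = 0.034). The IRF9 call at 24 h was lost without replicate 1, 2 or 3 of untreated CAL51 or replicate 1 or 3 at 24 h (adjusted p up to 0.11, 0.26 without 24 h replicate 1) and with the compared groups fitted alone (0.051). IRF7 was not called in any comparison.
Oligoadenylate synthetases make the activator of RNase L, and PKR (EIF2AK2) halts translation on double-stranded RNA. OAS3 was higher in CALDOX by 0.32 ± 0.06 (adjusted p = 0.0011), with 0.07 in its second probe set, not called. OAS1 and OASL were not called anywhere. OAS2 was lower at 24 h in CAL51 at -0.25 ± 0.07 (adjusted p = 0.041), a call lost without any of 10 arrays, all but treated CALDOX replicates 1 and 3 and the 48 h arrays (adjusted p up to 0.11, -0.24 without untreated CAL51 replicate 3), and with the median over probe sets (0.058), an intensity trend (0.056) and the compared groups alone (0.073). EIF2AK2 was lower at 48 h than in untreated CAL51 at -0.31 ± 0.07 (adjusted p = 0.0026) and lower than at 24 h at -0.26 ± 0.07 (adjusted p = 0.02), the last lost without 24 h replicate 1 or 3 or 48 h replicate 1 (adjusted p up to 0.10, -0.20), with the compared groups fitted alone (0.13) and with the median over probe sets, where it was -0.04 (adjusted p = 0.81).

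The remaining 21 genes were not called in any comparison. Besides those named above they were IFI27, IFI35, IFI44, IFI44L, XAF1, SAMD9, SAMD9L and SP110. Their differences ran from -0.26 to 0.37. Their mean levels lay between 4.51 and 8.51 (median 6.48), and the 26 genes called at least once lay between 4.69 and 11.70 (median 8.14). Markers of blood cells and plasmacytoid dendritic cells, types absent from a breast cancer line, gave means of 4.91 to 8.13 and none of the 12 was called. Of the 47 genes, 33 were at or below that top marker level and 13 of these were called at least once (39.4%, against 19.5% of all genes at such levels), and 13 of the 14 above it were (92.9%, against 63.9%). Probe sets differ in background, so a level in this range does not show whether a transcript was present.

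**Figure D4:**
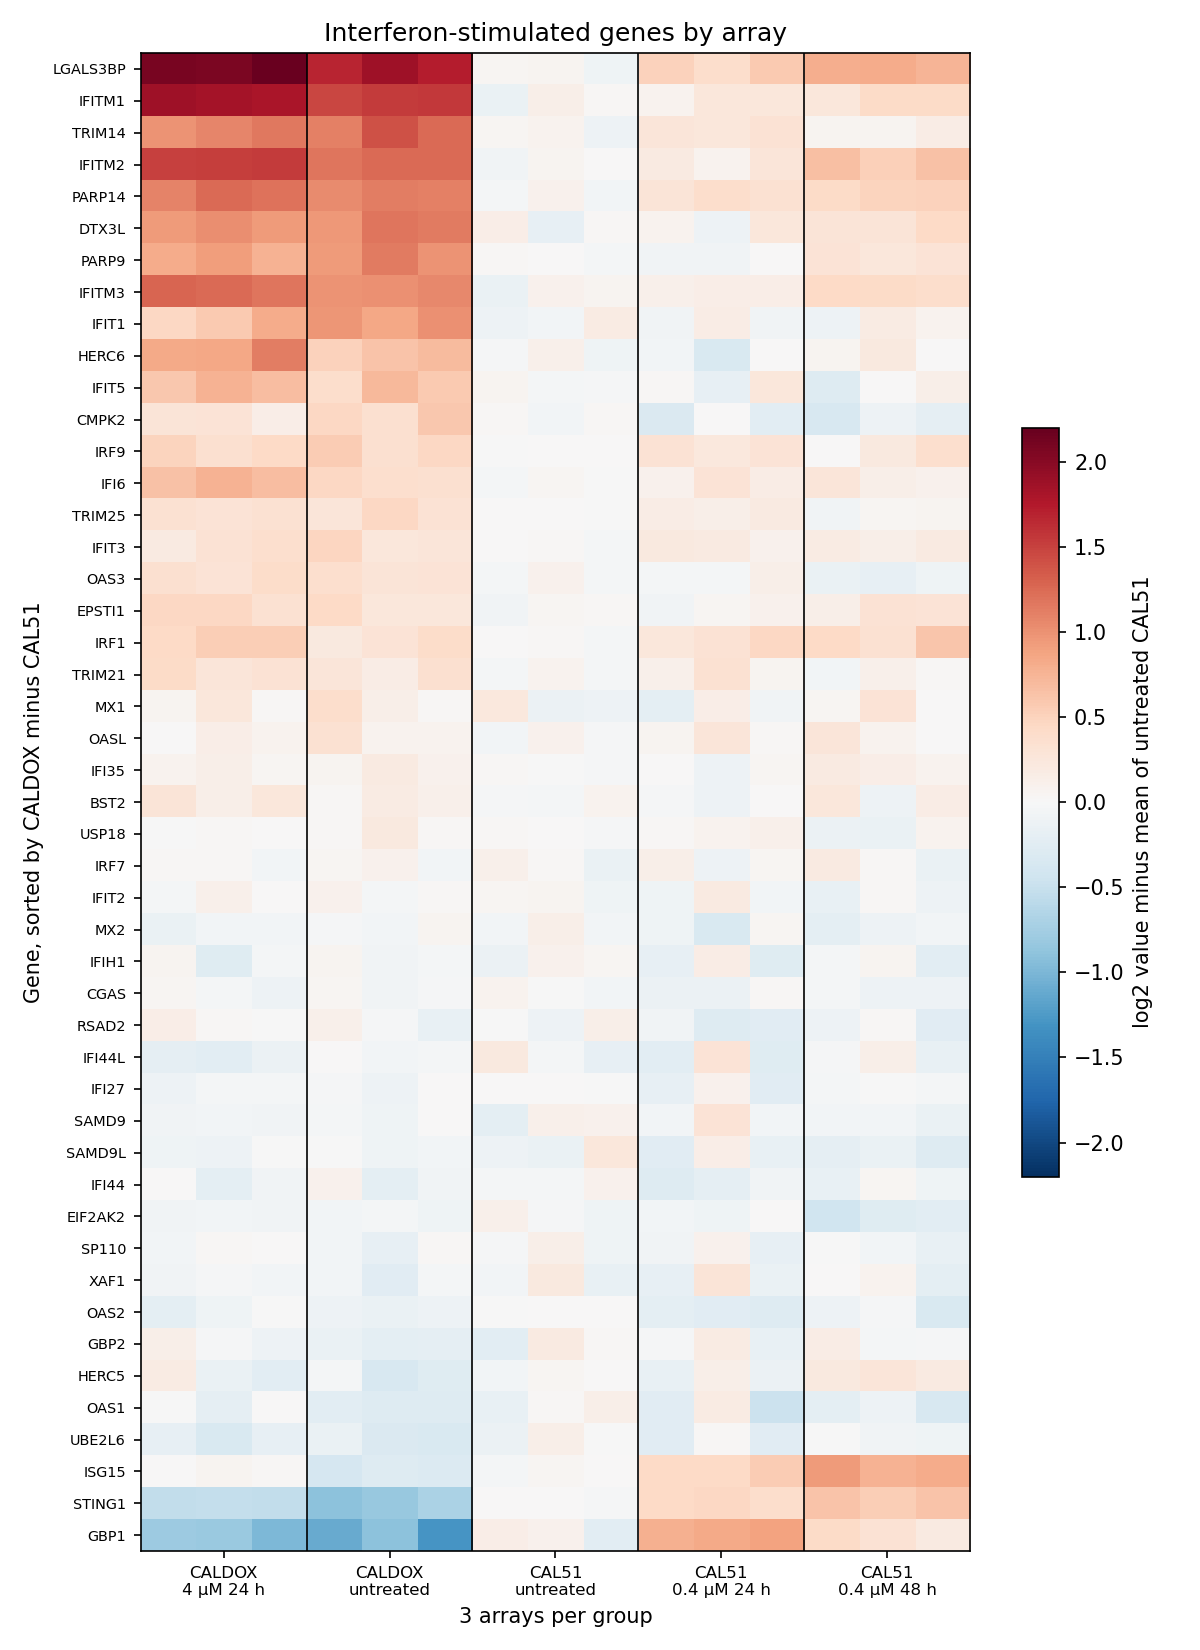
Log2 level of each of the 47 measured interferon-stimulated genes on each of 15 arrays, minus its mean in untreated CAL51 (red higher, blue lower), sorted by CALDOX minus CAL51. The 8 genes above 2-fold in CALDOX by their brightest probe sets are uniformly red in the 6 CALDOX arrays. STING1 and GBP1 are blue in CALDOX and red in treated CAL51.

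Another 120 measured genes of the interferon system, from a list of 128, put these values beside their pathway. Of them 37 were called in CALDOX against CAL51 (30.8%, against 25.9% of all genes) and 18 in treated CALDOX (15%, against 10.3%). In CAL51 25 were called at 24 h (20.8%, against 10.1%) and 33 at 48 h (27.5%, against 21.6%). Of 18 interferon genes, none was called higher in any comparison. In CALDOX 1 was lower (5.56%, against 11.7% of all genes). At 48 h in CAL51 2 were lower (11.1%, against 11.2% of all genes). IFNB1 averaged 5.84 in treated CALDOX, 5.93 in untreated CALDOX and 5.89, 5.77 and 5.83 in CAL51 at 0, 24 and 48 h, and was not called. These IFNB1 levels lie within the range of the blood and plasmacytoid dendritic cell markers. Of 6 receptors, 1 was lower in CALDOX (16.7%, against 11.7% of all genes). In treated CAL51 1 receptor was higher at each time (16.7%, against 5.77% of all genes at 24 h and 10.5% at 48 h).
SLFN11, a nuclear protein that blocks replication in damaged cells, was lower in CALDOX at -2.53 ± 0.11 (adjusted p = 4.7e-11). TBK1, the kinase downstream of STING, was lower at -1.15 ± 0.07 (adjusted p = 1.8e-09). It is among 21 measured genes of nucleic acid sensing, of which 3 were higher and 3 lower in CALDOX (28.6%, against 25.9% of all genes). TRIM22, a p53- and interferon-inducible ligase, was higher in CALDOX by 2.05 ± 0.08 (adjusted p = 1.2e-11) and TRIM5 by 1.31 ± 0.15 (adjusted p = 3.5e-06). The median over its probe sets put TRIM5 at 0.63, below 2-fold but still called. The complement protease C1S was higher by 1.26 ± 0.06 (adjusted p = 9e-11) and the cytidine deaminase APOBEC3B by 1.03 ± 0.09 (adjusted p = 1.9e-07). Of 59 further interferon-stimulated genes, 17 were higher and 4 lower in CALDOX (35.6%, against 25.9% of all genes). In treated CALDOX 11 were higher and 1 lower (20.3%, against 10.3%), and in CAL51 13 and 3 at 24 h (27.1%, against 10.1%) and 17 and 2 at 48 h (32.2%, against 21.6%). Of 12 inhibitors, 5 were higher and 2 lower in CALDOX, where 14.2% of all genes were higher and 11.7% lower. No inhibitor was called higher in treated over untreated cells of either line. In treated CALDOX 3 were lower (25%, against 5.5% of all genes). In CAL51 2 were lower at each time (16.7%, against 4.34% of all genes at 24 h and 11.2% at 48 h). In CAL51, TRIM22 rose by 2.62 ± 0.08 (adjusted p = 2.2e-11) at 24 h and 3.20 ± 0.08 (adjusted p = 1.1e-12) at 48 h. The antigen peptide transporter TAP1 rose by 1.12 ± 0.06 (adjusted p = 9e-09) at 24 h and 1.44 ± 0.06 (adjusted p = 2.3e-10) at 48 h, and the dNTP hydrolase SAMHD1 by 1.03 ± 0.08 (adjusted p = 1.6e-07) at 48 h. In treated CALDOX, TRIM22 rose by 1.20 ± 0.08 (adjusted p = 1.9e-07), TAP1 by 0.55 ± 0.06 (adjusted p = 2.7e-05) and C1S by 0.70 ± 0.06 (adjusted p = 1.6e-06).

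The levels of chromosomal neighbours, up to 6 measured genes on each side, were also compared between untreated CALDOX and untreated CAL51, a choice made after their values were seen; 25.9% of all genes were called in this comparison. Around PARP9, DTX3L and PARP14, 4 of 13 neighbours were higher and 4 lower. PARP15, between DTX3L and PARP14, differed by 0.15 ± 0.13 and KPNA1, beside PARP9, by -0.03 ± 0.07, neither called, while HSPBAP1, beside PARP14, was lower at -0.29 ± 0.08 and SLC49A4 at -1.05 ± 0.07. Around the IFITM cluster 2 of 11 were higher and none lower, and the flanking PGGHG (0.21 ± 0.09) and B4GALNT4 (0.04 ± 0.11) were not called.
Around the IFIT cluster 4 of 12 were higher and 3 lower, with FAS, a p53-inducible death receptor gene, at 2.15 ± 0.12 and the flanking LIPA at 0.47 ± 0.08 and PANK1 at 0.37 ± 0.08, all higher. Around GBP1 and GBP2, 3 of 12 were higher and 1 lower, and the flanking GBP3 and GBP4 were not called. Both genes flanking LGALS3BP were higher, TIMP2 at 0.47 ± 0.10 and CANT1 at 0.49 ± 0.06 (3 of 12 neighbours higher, 1 lower). Both genes flanking STING1 were lower, ECSCR at -1.76 ± 0.09 and CXXC5 at -0.55 ± 0.07 (4 of 12 higher, 4 lower). Those flanking TRIM14, ANP32B and NANS, were not called (2 of 12 higher, 1 lower).

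**Figure D5:**
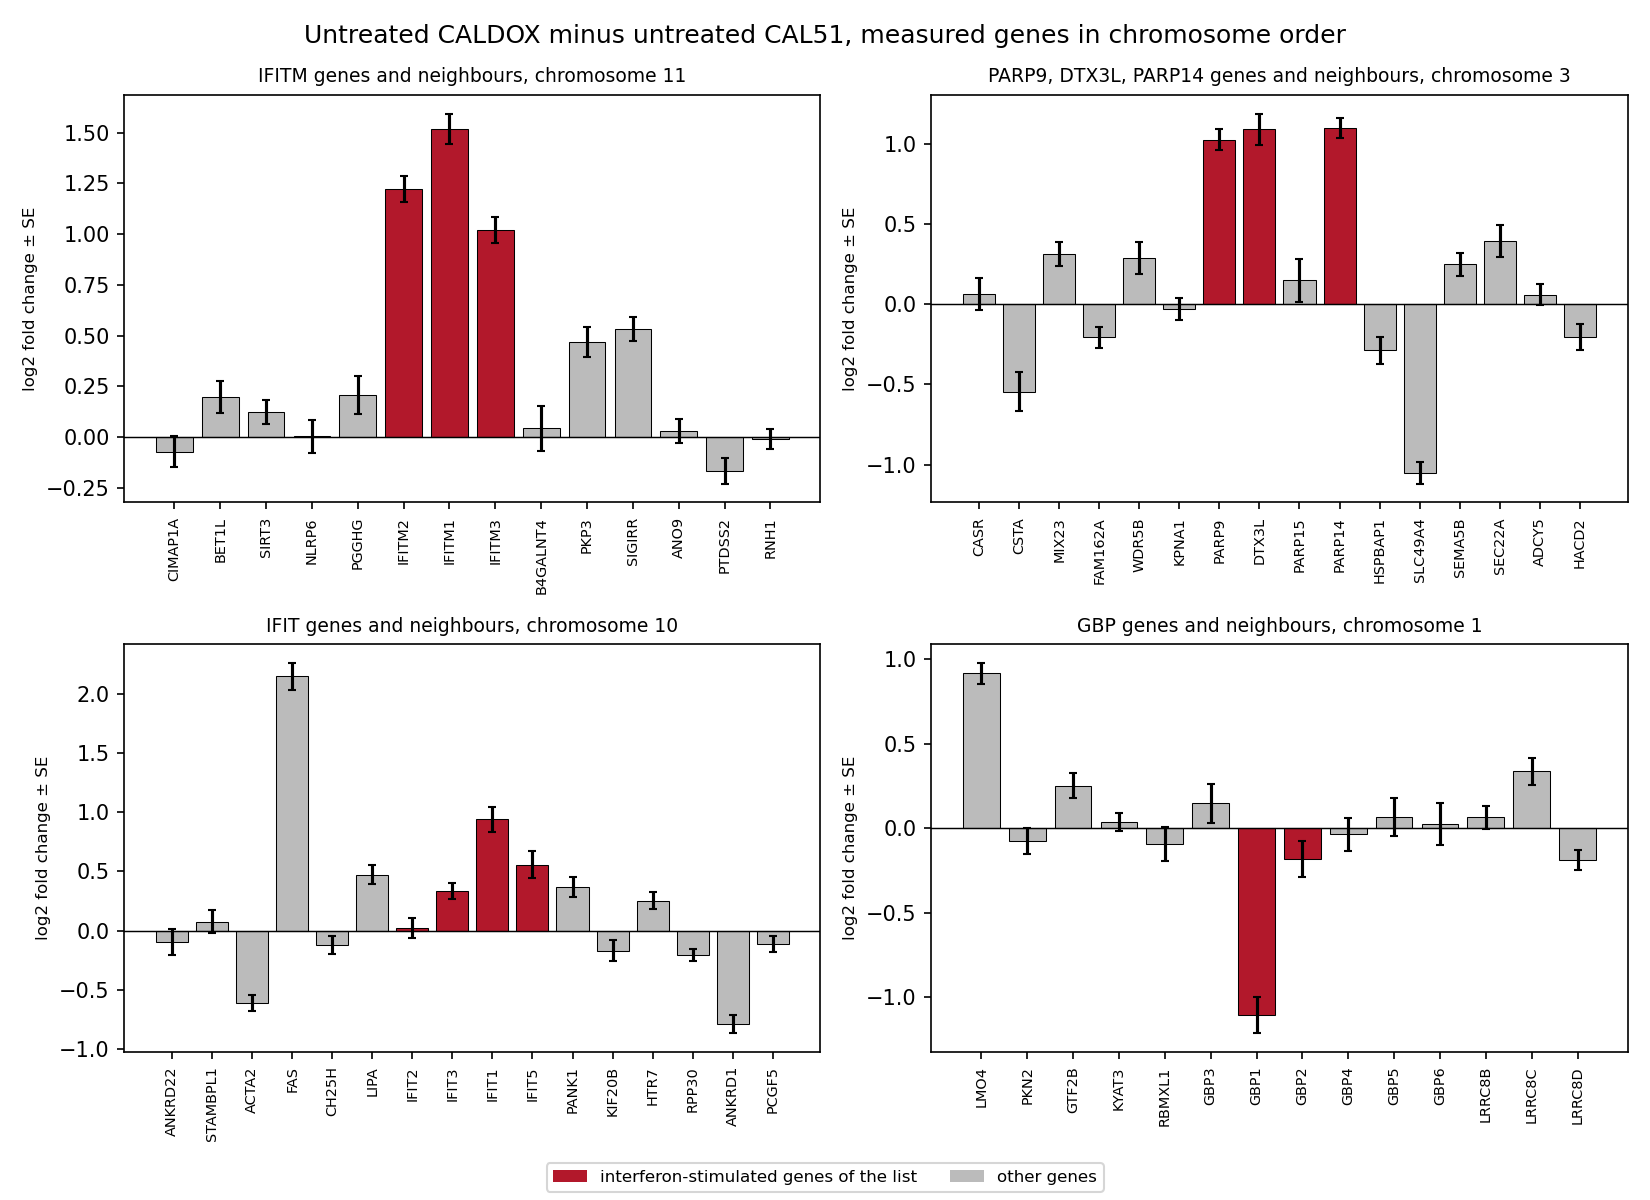
Log2 fold change ± SE between untreated CALDOX and untreated CAL51 for the measured genes around 4 loci, in chromosome order (interferon-stimulated genes of the list in red, others in grey). The genes directly beside IFITM1, IFITM2 and IFITM3, and PARP15 between DTX3L and PARP14, stood between 0.04 and 0.21, while FAS near the IFIT genes reached 2.15.

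Across the arrays values ran from 3.08 to 14.76, correlations between arrays of a group from 0.9929 to 0.9978 and between groups from 0.9789 to 0.9958, and no pair was identical. The mean over the 47 genes was 7.63 to 7.64 in treated CALDOX, 7.58 to 7.60 in untreated CALDOX and 7.31 to 7.46 in CAL51 groups. The receptor genes ESR1, PGR and ERBB2 averaged 8.37, 6.18 and 10.09 in untreated CALDOX and 8.42, 6.14 and 10.03 in untreated CAL51. Keratin 18 averaged 13.63 in untreated CALDOX and 14.11 in untreated CAL51, and keratin 8 averaged 12.07 and 12.55. EPCAM averaged 12.32 in untreated CALDOX and 11.88 in untreated CAL51. Vimentin averaged 10.86 in untreated CALDOX and 12.58 in untreated CAL51. Of 5 fibroblast markers, PDGFRB and COL3A1 were lower in CALDOX, and DCN, LUM and FAP were not called in any comparison. Whether these differences bear on the results above was not tested.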

How the data were processed

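Total RNA was biotin-labelled and hybridised to 1 Affymetrix array per culture, 15 arrays in 5 groups of 3. RMA is the tool given in the submitters' processing notes. The values the authors deposited are normalized log2 values, with the log base taken from their range. Of 54675 probe sets, 41091 carry 1 gene symbol, 1801 carry several and were left out. The brightest probe set by mean over 15 arrays stands for each of 19775 genes. The members and gene lists were chosen with earlier results of these data known.

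A group-means model over all 15 arrays was fitted with limma 3.58.1 in R 4.3.3 (lmFit, eBayes; 10 residual and 5.4 prior degrees of freedom), with 6 contrasts and Benjamini-Hochberg adjustment over 19775 genes. Genes were called at adjusted p under 0.05. Arrays give no counts, and 3 arrays per group limit the precision. Every member called at least once is named, with the value of every array for the 5 largest called changes per contrast. At most 6 genes of the pathway list are named per contrast. The alternatives were 22: 7 other settings and 15 arrays left out singly. Of 30 pairs of same-numbered arrays, 8 had residual correlations over 0.1. All 30 ran from -0.462 to 0.458, and pairs of differently numbered arrays ran from -0.457 to 0.469. This does not settle whether replicate numbers pair some of the samples. The main fit left the numbers out, and a fit with them as a block is given below.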

Additional observations from a re-analysis of the deposited data

Results flagged for a closer look

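The 24 h responses differed between the lines for 1 of the 47 interferon-stimulated genes and for 6 pathway genes, by a test of the difference itself (limma, adjusted over 19775 genes); CALDOX received 4 µM and CAL51 0.4 µM, so line and dose cannot be told apart. TRIM14 differed by -0.46 ± 0.11 (adjusted p = 0.048; -0.18 in CALDOX and 0.28 in CAL51). TRIM22 differed by -1.42 ± 0.11 (adjusted p = 1.6e-05; 1.20 in CALDOX and 2.62 in CAL51). APOBEC3B differed by -0.89 ± 0.13 (adjusted p = 0.0015), with opposite signs, -0.60 in CALDOX and 0.30 in CAL51. TAP1 differed by -0.57 ± 0.09 (adjusted p = 0.0024; 0.55 in CALDOX and 1.12 in CAL51). PLSCR1, a phospholipid scramblase, differed by -0.52 ± 0.09 (adjusted p = 0.0099; 0.25 in CALDOX and 0.77 in CAL51). SOCS3 differed by 0.51 ± 0.12 (adjusted p = 0.039; 0.21 in CALDOX and -0.30 in CAL51), a call lost without any of 11 arrays, all but untreated CALDOX replicate 2, CAL51 24 h replicate 3 and CAL51 48 h replicates 1 and 3 (adjusted p up to 0.12, 0.47 without untreated CALDOX replicate 3) and with the median over probe sets (0.25, adjusted p = 0.42). C1S differed by 0.42 ± 0.08 (adjusted p = 0.016; 0.70 in CALDOX and 0.29 in CAL51), a call lost without treated CALDOX replicate 3, untreated CALDOX replicate 3 or CAL51 24 h replicate 1 (adjusted p up to 0.059, 0.38 without untreated CALDOX replicate 3).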

How the results depend on the processing

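Of 61 called results of the interferon-stimulated genes, 42 kept their call under every one of the 22 alternatives that gave a value (21 for CMPK2, which a minimum level of 6 left out) and 19 lost it under at least one. Member calls moved by over 1.5 times in these settings. The median over probe sets left 5 at 24 h in CAL51, against 9. The fit of the compared groups only left 4 between 24 h and 48 h (against 7) and 0 for the difference of responses (against 1). Array weights gave 12 in treated CALDOX (9 higher, 3 lower; against 7) and 3 for the difference. A smaller move came with repeated quantile normalization, which gave 9 in treated CALDOX (7 higher and 2 lower, against 7 higher and 0 lower). Leaving out 1 array gave 5 to 11 at 24 h (5 without CAL51 24 h replicate 3), 11 to 13 at 48 h, 6 to 8 between the times, 22 to 25 between the lines, 5 to 8 in treated CALDOX and 0 to 1 for the difference. For the difference, TRIM14 turned to 0.076 with the median over probe sets. With the replicate block, member calls were 8, 13, 7, 24, 6 and 1 for 24 h, 48 h, 48 h against 24 h, CALDOX against CAL51, treated CALDOX and the difference. OAS2 at 24 h (adjusted p = 0.061), IFITM3 in treated CALDOX (0.062) and, for the difference, TRIM14 (0.067) and SOCS3 (0.051) were not called in that fit. The 1 gene called there for the difference was GBP1 (-0.59, adjusted p = 0.035), not TRIM14.

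Over all genes, array weights called 3027 at 24 h, the compared groups alone 870 (against 1999) and 565 between the times (against 1920). Array weights called 3976 in treated CALDOX (against 2041). For the difference, 426, 895 and 464 were called with repeated quantile normalization, array weights and an intensity trend (against 283). Leaving out 1 array gave 1355 to 2117 at 24 h, 3507 to 4754 at 48 h, 1236 to 1951 between the times (1236 without 48 h replicate 1), 4341 to 5550 between the lines, 1341 to 2338 in treated CALDOX (1341 without its treated replicate 1) and 161 to 353 for the difference (161 without that array). The causes were not tested.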
